A study of Mus musculus with 4 samples.

Results

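The collagen gene family was described in mouse liver without MDR2, without the growth hormone receptor (GHR), without both, and with both intact. Members were all genes whose symbol is Col, a number, a and a number, on array rows annotated with exactly 1 gene symbol. There were 44 such genes among 19938 measured, and 44 collagen genes of this form in the RefSeq table of the same organism. By structure, 11 were fibrillar, 8 belonged to basement membranes, 9 were FACIT collagens and 16 were of other kinds.

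RNA came from the livers of mice labelled male and 8 weeks old, and the groups were wildtype, MDR2 knockout, GHR knockout and GHR/MDR2 Double knockouts. MDR2 is the product of Abcb4 and carries phosphatidylcholine into bile, and its loss in mice gives cholestasis, bile duct injury and fibrosis. GHR passes the growth hormone signal into the cell. Each genotype was 1 Affymetrix array of RNA pooled from 3 livers, so no genotype had a replicate, and the labels do not state the strain or the extent of each deletion.

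Collagens are trimers of chains with a repeated glycine-X-Y sequence. Fibrillar collagens form the fibres of scar tissue, type IV collagens form the sheet of basement membranes, and FACIT collagens (fibril-associated collagens with interrupted triple helices) sit on the surface of fibres. In injured liver the fibrillar chains are made mostly by activated stellate cells and portal fibroblasts, while hepatocytes are a known source of Col18a1.

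The wild-type, MDR2-knockout, GHR-knockout and double-knockout arrays correlated at a Pearson r of 0.970 to 0.988 over rows with 1 symbol (log2). Intensity is the deposited linear array value, and an intensity of 100, the median of all rows with 1 symbol, is used below as the level under which a value was not shown to be above background. Ghr intensity was 4944 and 4485 in the wild-type and MDR2-knockout pools against 1395 and 935 in the GHR-knockout and double-knockout pools, and Abcb4 was 1120 and 1346 with MDR2 present against 663 and 689 without it. The exons covered by these rows are not stated. The GHR-knockout pool, labelled male, went against its label in Xist, an RNA of female cells, at 1400 against 16 to 18 in the other pools. For that reason the collagen counts and medians are given in the pair of arrays with the GHR-knockout pool and in the pair without it. Intensities of different genes come from different probes, so levels were compared between pools and not between genes.

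MDR2 loss went with higher mRNA of the major fibrillar chains and of a type VI chain. Col1a1, Col1a2, Col3a1 and Col6a3 were at least 1.5-fold higher without MDR2, whether GHR was present or absent. Pools with and without GHR were less than 1.5-fold apart for every collagen in the rows used, at either MDR2 status. In whole liver a change in the number of collagen-making cells and a change in RNA per cell cannot be told apart.

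The promoters of 3 of these 4 genes are shown because these members moved together, each as the 250 bases before the RefSeq transcription start, 5′ to 3′ on the gene's own strand. Of the 44 members, 35 had an entry in the RefSeq promoter table, and Col1a1 had none. Capitals mark the motifs searched on both strands, TATAAA (the core of a TATA box), CCAAT and GGGCGG (a GC box), which did not overlap in these windows.
Col1a2, GRCm38.p6, chr6:4505368-4505617, plus strand: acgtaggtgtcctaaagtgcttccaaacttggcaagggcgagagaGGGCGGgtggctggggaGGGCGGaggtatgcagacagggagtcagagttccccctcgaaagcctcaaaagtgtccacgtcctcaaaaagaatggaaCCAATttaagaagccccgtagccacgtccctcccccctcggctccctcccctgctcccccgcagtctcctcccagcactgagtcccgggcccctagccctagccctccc
Col3a1, GRCm38.p6, chr1:45311288-45311537, plus strand: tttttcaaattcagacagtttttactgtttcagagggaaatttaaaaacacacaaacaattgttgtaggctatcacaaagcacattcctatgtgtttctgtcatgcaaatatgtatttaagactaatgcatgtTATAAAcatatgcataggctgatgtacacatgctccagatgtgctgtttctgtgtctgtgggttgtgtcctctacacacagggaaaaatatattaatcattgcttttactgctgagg
Col6a3, GRCm38.p6, chr1:90843972-90844221, minus strand: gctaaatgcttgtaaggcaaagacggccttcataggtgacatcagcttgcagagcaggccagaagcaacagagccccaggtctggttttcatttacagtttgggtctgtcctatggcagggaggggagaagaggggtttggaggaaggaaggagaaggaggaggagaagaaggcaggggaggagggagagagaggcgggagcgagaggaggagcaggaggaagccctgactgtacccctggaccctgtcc
In Col1a2 a CCAAT lay 109 to 105 bases before the start and GGGCGG lay at 205 to 200 and at 188 to 183 bases before it. Col3a1 had a TATAAA 117 to 112 bases before the start, and none of these letter strings was found in the Col6a3 window. Over the 38 windows of the 35 members, GGGCGG was in 57.9%, CCAAT in 34.2% and TATAAA in 13.2%, against 32.7%, 33.8% and 12.4% of all 32851 promoter windows of that length. A match is a description of the letters and not evidence that a factor bound there.

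Type I collagen, built from Col1a1 and Col1a2, is the main fibre of fibrotic liver. Col1a1 intensity was 188 in wild type, 373 without MDR2, 159 without GHR and 423 without both. Its partner chain Col1a2 stood at 182, 403, 180 and 409 in the same order. Both chains were thus near one level in the pools with MDR2 and at another, higher level in the pools without it. Col1a1 was 1.98-fold higher in the MDR2-knockout than in the wild-type pool and 2.66-fold higher in the double-knockout than in the GHR-knockout pool. For Col1a2 these ratios were 2.21 and 2.27.

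Type III collagen is the fine fibre laid down beside type I. Col3a1 was 180 in wild type, 353 without MDR2, 166 without GHR and 311 without both, 1.96-fold higher with MDR2 loss where GHR was present and 1.87-fold higher where it was absent. Again both pools without MDR2 lay above both pools with it. Col5a2, the neighbour of Col3a1 on chromosome 1 and a chain of the type V collagen that sets fibre width, was 68, 84, 53 and 91 in the wild-type, MDR2-knockout, GHR-knockout and double-knockout pools, below the level of 100 throughout. Its ratios for MDR2 loss were 1.24 with GHR and 1.72 without it, in the same order of pools as Col1a1.

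The other fibrillar chains differed less. Col5a1 was 126, 148, 137 and 139 in the wild-type, MDR2-knockout, GHR-knockout and double-knockout pools, and Col5a3 was 100, 127, 93 and 90. Col27a1, a fibrillar chain known from cartilage, was 205, 242, 205 and 188, and the cartilage chains Col2a1 and Col11a2 ranged from 123 to 141 and from 115 to 136. In these 5 genes the MDR2-knockout pool was the highest and the double-knockout pool was within 1.11-fold of the wild type. Col11a1 and Col24a1 stayed below 100 on every array.

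**Figure D1:**
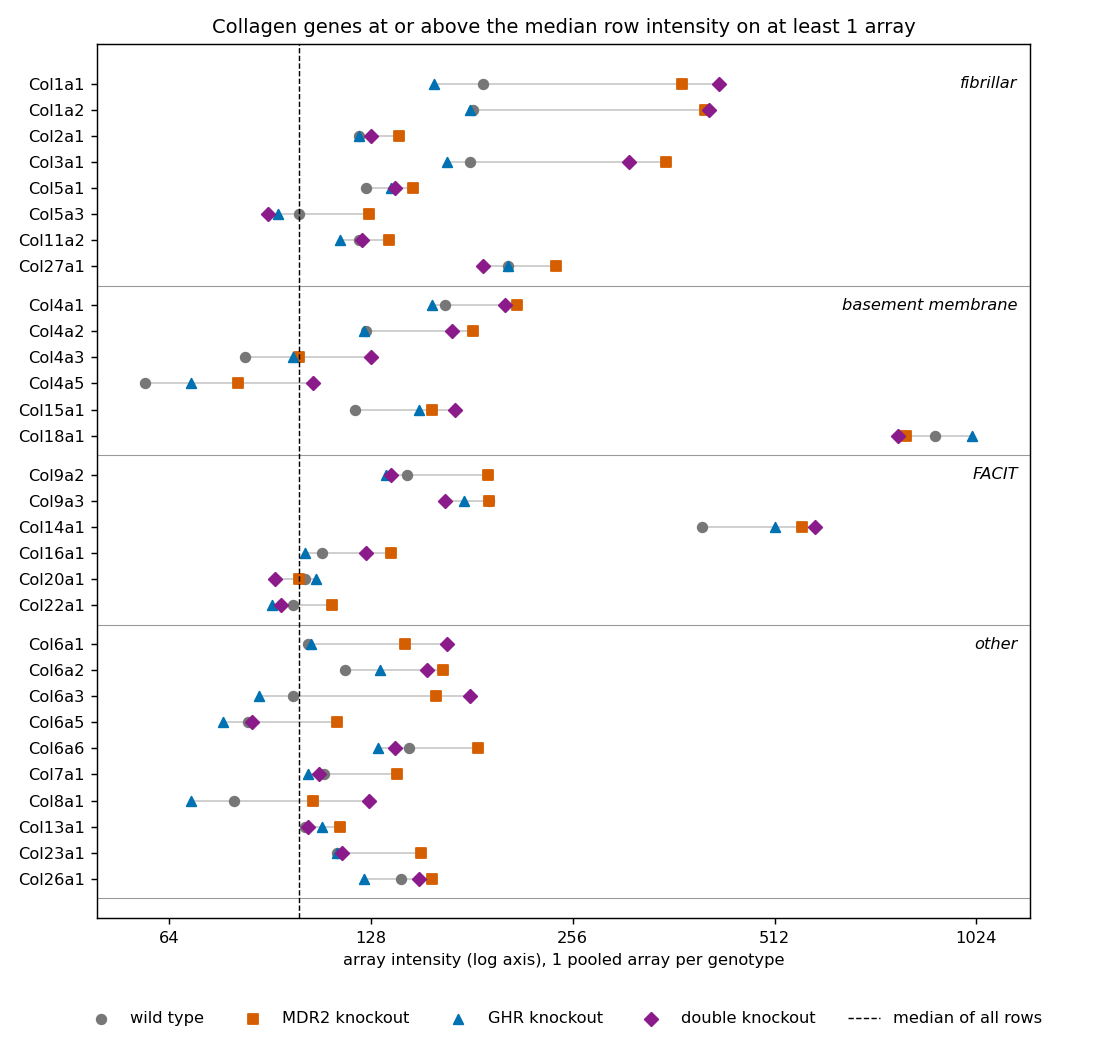
Array intensity on a log axis of the 30 collagen genes that reached an intensity of 100 (dashed line) on at least 1 array, grouped by structural class, with 1 point per genotype pool and no error bars because there were no replicates. Col1a1, Col1a2, Col3a1 and Col6a3 show the 2 pools without MDR2 apart from the 2 pools with it, while Col18a1 is lowest in the pools without MDR2.

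Type VI collagen forms beaded filaments around cells from the chains Col6a1, Col6a2 and Col6a3. Col6a3 intensity was 98 in wild type, 160 without MDR2, 87 without GHR and 180 without both. It was 1.63-fold higher with MDR2 loss where GHR was present and 2.07-fold higher where it was absent, and it reached the level of 100 only in the pools without MDR2. Col6a1 was 103, 144, 104 and 166 in the same order, with ratios of 1.40 and 1.60, and Col6a2, next to it on chromosome 10, was 117, 164, 132 and 155, with ratios of 1.40 and 1.17. All 3 chains were higher in both pools without MDR2 than in either pool with it. The later type VI chains ran another way: Col6a6 was 146, 185, 131 and 139, and Col6a5 was 84, 114, 77 and 85, so that the MDR2-knockout pool stood alone above the other pools. Col6a5 and Col6a6 had 2 rows each, and the row with the higher mean was used.

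Type IV collagen is the network of basement membranes, and Col4a1 and Col4a2, neighbours on chromosome 8, are its ubiquitous chains. Col4a1 was 165 in wild type, 211 without MDR2, 158 without GHR and 203 without both. Col4a2 was 126, 182, 125 and 169. Both were higher in each pool without MDR2, by 1.28-fold and 1.44-fold with GHR present and by 1.28-fold and 1.35-fold with GHR absent, and none of these ratios reached 1.5.

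The type IV chains of specialised membranes had their highest value in the double-knockout pool where they were measured above the level. Col4a3 was 83, 100, 98 and 128 in the wild-type, MDR2-knockout, GHR-knockout and double-knockout pools, and Col4a5, on the X chromosome, was 59, 81, 69 and 105. Col4a5 was 1.52-fold higher in the double-knockout than in the GHR-knockout pool and reached 100 only there. Col4a4, the neighbour of Col4a3, was 73, 90, 78 and 95, and Col4a6 stayed between 52 and 62.

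Col15a1 and Col18a1, whose chains carry endostatin-like domains in basement membrane zones, went opposite ways. Col15a1, a marker of capillary-type vessels, was 121 in wild type, 158 without MDR2, 151 without GHR and 171 without both, so the wild-type pool was the lowest. Col18a1 was 887, 803, 1008 and 783, lower in both pools without MDR2, by 0.14 on the log2 scale where GHR was present and 0.36 where it was absent. Among the 30 members that reached the level, Col18a1 and the FACIT chain Col20a1 (100 against 102) were the 2 that were lower in the MDR2-knockout than in the wild-type pool.

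Among FACIT collagens, Col14a1, a fibre-associated chain known from stellate cells and fibroblasts, was 399 in wild type, 562 without MDR2, 512 without GHR and 588 without both. All 3 knockout pools thus lay above the wild type, and the ratio for MDR2 loss was 1.41 with GHR present and 1.15 without it. Col16a1 was 108, 137, 102 and 126, higher in both pools without MDR2. Col9a2 was 145, 191, 135 and 137 and Col9a3 was 192, 192, 176 and 165, and Col22a1 and Col20a1 ranged from 91 to 112 and from 92 to 106. Col12a1, a chain of stressed connective tissue, was 46, 56, 44 and 69, its highest value in the double-knockout pool and below the level throughout.

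Of the remaining kinds, Col8a1, a short network-forming chain of vessel walls, was 80 in wild type, 105 without MDR2, 69 without GHR and 127 without both, in the order of pools seen for Col1a1. It was 1.31-fold higher with MDR2 loss where GHR was present and 1.84-fold higher where it was absent. Col7a1, of anchoring fibrils, was 109, 140, 103 and 107, and the transmembrane chain Col23a1 was 114, 152, 114 and 116. In both the MDR2-knockout pool stood alone, as it did for Col6a6. Col26a1 was 142, 158, 125 and 151, and Col13a1 ranged from 102 to 115. In all, 14 members never reached an intensity of 100 (Col4a4, Col4a6, Col5a2, Col6a4, Col8a2, Col9a1, Col10a1, Col11a1, Col12a1, Col17a1, Col19a1, Col24a1, Col25a1 and Col28a1), so their differences rest on values not shown to be above background.

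Over the 44 members, 4 (9.09%) were at least 1.5-fold higher in the MDR2-knockout than in the wild-type pool with the higher array at or above 100, where 3.14% of all genes were, and none was 1.5-fold lower, where 1.84% were. In the double-knockout against the GHR-knockout pool 7 members (15.9%) were higher, where 5.27% of all genes were, and none was lower, where 5.24% were. These 7 were Col1a1, Col1a2, Col3a1, Col4a5, Col6a1, Col6a3 and Col8a1. Of these, Col4a5, Col6a3 and Col8a1 reached 100 in this pair only in the double-knockout pool, where they were higher. In the first pair Col6a3 reached it only in the MDR2-knockout pool. The same 4 genes, Col1a1, Col1a2, Col3a1 and Col6a3, were past 1.5-fold in both pairs, against 2.31% of all genes. At a 2-fold threshold Col1a2 alone was left in the first comparison and Col1a1, Col1a2 and Col6a3 in the second, and with arrays centred on hepatocyte markers the first count was 10, these 4 among them.

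Most members that missed the threshold still lay above 0. The median log2 difference over the 44 genes was 0.28 in the MDR2-knockout against the wild-type pool, with 38 above 0, 3 below and 3 equal, while the median of all genes was 0.00. Above 0 were 86.4% of members, against 50.2% of all genes and 56.9% of genes with a mean under 100. By class the collagen medians in this pair were 0.24 for fibrillar, 0.33 for basement membrane, 0.27 for FACIT and 0.28 for other collagens. In the double-knockout against the GHR-knockout pool the median was 0.11, with 32 of 44 above 0, against -0.02 for all genes. Above 0 in this pair were 72.7% of members, 42.8% of all genes and 44.2% of genes with a mean under 100. The class medians there were 0.06 for fibrillar, 0.32 for basement membrane, 0.05 for FACIT and 0.12 for other collagens. Fibrillar genes held both the highest members and a median near that of all genes in that pair, with types I and III past the threshold and the cartilage chains short of it.

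**Figure D2:**
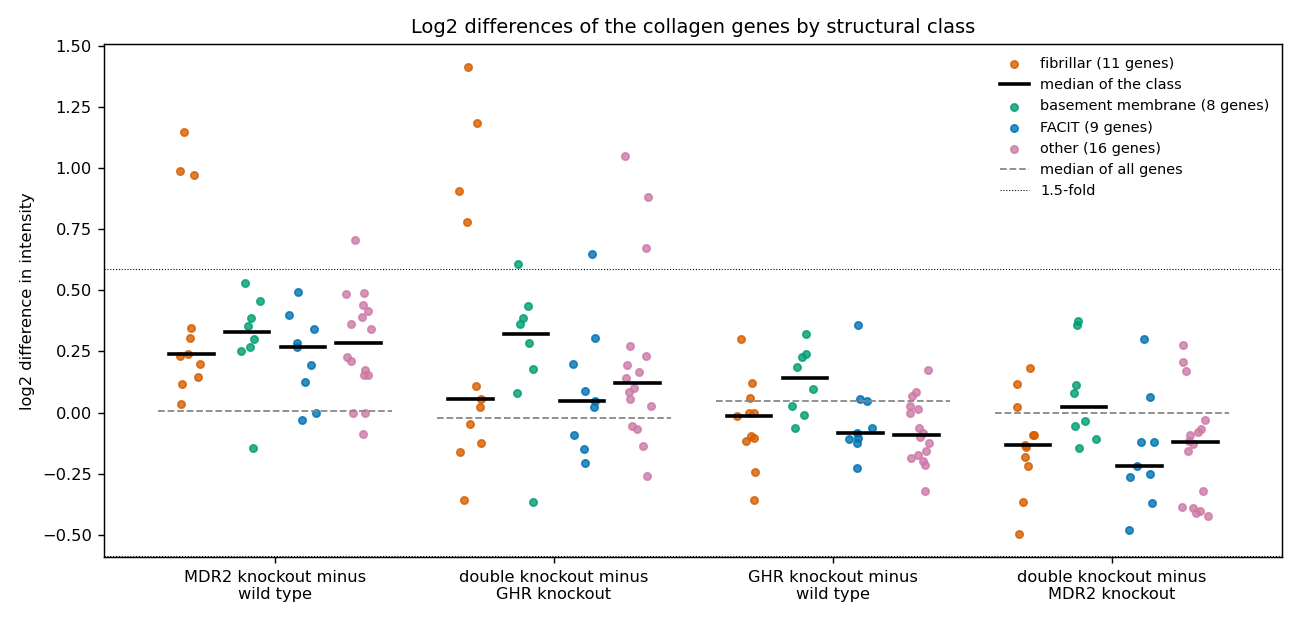
Log2 difference in intensity of each collagen gene (points, coloured by class) in 4 comparisons of single pooled arrays, with the class median (black bar), the median of all genes (grey dashes) and the 1.5-fold lines (dotted). Fibrillar and other points stand above the upper line in both MDR2-loss comparisons, and no point passes either line in the GHR-loss comparisons.

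One test across all genes was possible, limma's moderated test in an additive fit of GHR status and MDR2 status over the 4 arrays. The fit takes an effect as equal in both backgrounds. Its SE and p rest on a gene's departure from additivity, with 1 residual degree of freedom, and on that departure over all genes tested. They do not measure the spread between mice or between pools of a genotype. The fit always included the GHR-knockout pool that went against its label. It covered the 25 members, among 9924 genes, whose mean over the arrays was at or above 100. With Benjamini-Hochberg adjustment, 4 of the 25 rose with MDR2 loss, where 3.82% of all genes did, and none fell, where 1.5% did. The average log2 difference was 1.20 for Col1a1 (SE 0.16, adjusted p = 0.0197), 1.17 for Col1a2 (SE 0.14, adjusted p = 0.0156), 0.94 for Col3a1 (SE 0.14, adjusted p = 0.0226) and 0.88 for Col6a3 (SE 0.15, adjusted p = 0.0344). Each was higher in 2 of 2 array pairs. The average is the mean of these 2 pair differences, so this is not a separate result. Col6a3 reached a mean of 100 only through its pools without MDR2, the pools where it was higher. Col6a1 missed the threshold (0.58, SE 0.14, adjusted p = 0.0804), as did Col4a2 (0.48, SE 0.14, adjusted p = 0.108) and Col4a1 (0.36, SE 0.14, adjusted p = 0.189).

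These 4 calls depended on the genes tested: with all 19938 genes in the limma fit the adjusted p of each was 0.327 and no member passed. Over the 7 other limma settings the adjusted p ran from 0.0135 to 0.0334 for Col1a1, 0.0102 to 0.032 for Col1a2, 0.0164 to 0.037 for Col3a1 and 0.0263 to 0.0537 for Col6a3. Col6a3 missed the threshold among genes whose highest array reached 100 (0.0504) and with 32 added to each intensity (0.0537).

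For GHR loss no member passed in either direction. Of the 25 members tested by limma, 0 had an adjusted p under 0.05, and 0 had an unadjusted p under 0.05, where 9.6% of all genes were higher and 3.74% lower at that unadjusted threshold. After adjustment 0.252% of all genes rose and 0.443% fell. The lowest adjusted p among members was 0.430, for Col4a3 (0.30, SE 0.14). The 95% interval of the average log2 effect of GHR loss was -0.43 to 0.37 for Col1a1 and -0.33 to 0.34 for Col1a2. It was -0.49 to 0.19 for Col3a1 and -0.38 to 0.38 for Col6a3. Average effects inside these intervals were not excluded by the fit.

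The arrays without the pool that went against its label give the comparison the series title names, growth hormone resistance added to cholestasis. In the double-knockout against the MDR2-knockout pool 0 of 44 members were 1.5-fold higher, where 3.79% of all genes were, and 0 were lower, where 2.05% were. The median log2 difference was -0.12, with 12 members above 0 and 32 below, against 0.00 for all genes. Above 0 were 27.3% of members, 44.3% of all genes and 31.6% of genes with a mean under 100, whose median was -0.061. Of the 25 members with a mean at or above 100, 28% were above 0, against 57.3% of all such genes. Col1a1 was 1.13-fold higher, Col1a2 1.01-fold higher and Col3a1 1.14-fold lower in the double-knockout pool. The highest ratios were those of Col4a5 at 1.30, Col4a3 at 1.28 and Col12a1 at 1.23, and Col5a3, Col9a2, Col6a5 and Col6a6 were 1.41-fold, 1.39-fold, 1.34-fold and 1.33-fold lower.

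With MDR2 intact, in the GHR-knockout against the wild-type pool, 0 of 44 members were 1.5-fold higher, where 2.15% of all genes were, and 0 were lower, where 1.25% were. The median was -0.039, with 17 members above 0 and 24 below, and it turned to 0.072 when arrays were centred on hepatocyte markers. Above 0 were 38.6% of members, 55.8% of all genes and 44.9% of genes with a mean under 100. Col14a1 was the highest, 1.28-fold above the wild type, and Col5a2, with intensities below 100, the lowest, 1.28-fold below it.

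Differences with MDR2 loss ran the same way in most members in the 2 array pairs, which share no array but were normalized together. Over the 44 members the log2 differences of the 2 pairs had a Pearson r of 0.81 and a Spearman rho of 0.70, and over all 9924 genes with a mean at the level 0.65 and 0.55, as a description, since genes are not independent samples. Both differences were above 0 in 31 of 44 members (70.5%) and both below 0 in 3 (6.82%), against 27.2% and 41.8% of those genes. Either way the sign was shared by 77.3% of members and 69.0% of those genes. For GHR loss the members' Pearson r was 0.22 and Spearman rho 0.23, against 0.50 and 0.28 over those genes, with both differences above 0 in 13.6% of members and 42.4% of those genes. Both were below 0 in 40.9% of members and 18.0% of those genes. The sign was shared by 54.5% of members and 60.4% of those genes. The difference between the 2 responses, which is the departure from additivity, had a robust SD of 0.32 (log2) over the genes at the level. No member was beyond 2 robust SDs, where 9.18% of those genes were. The highest were Col8a1 at 0.49, Col5a2 at 0.48 and Col1a1 at 0.42, and the lowest was Col17a1 at -0.47.

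**Figure D3:**
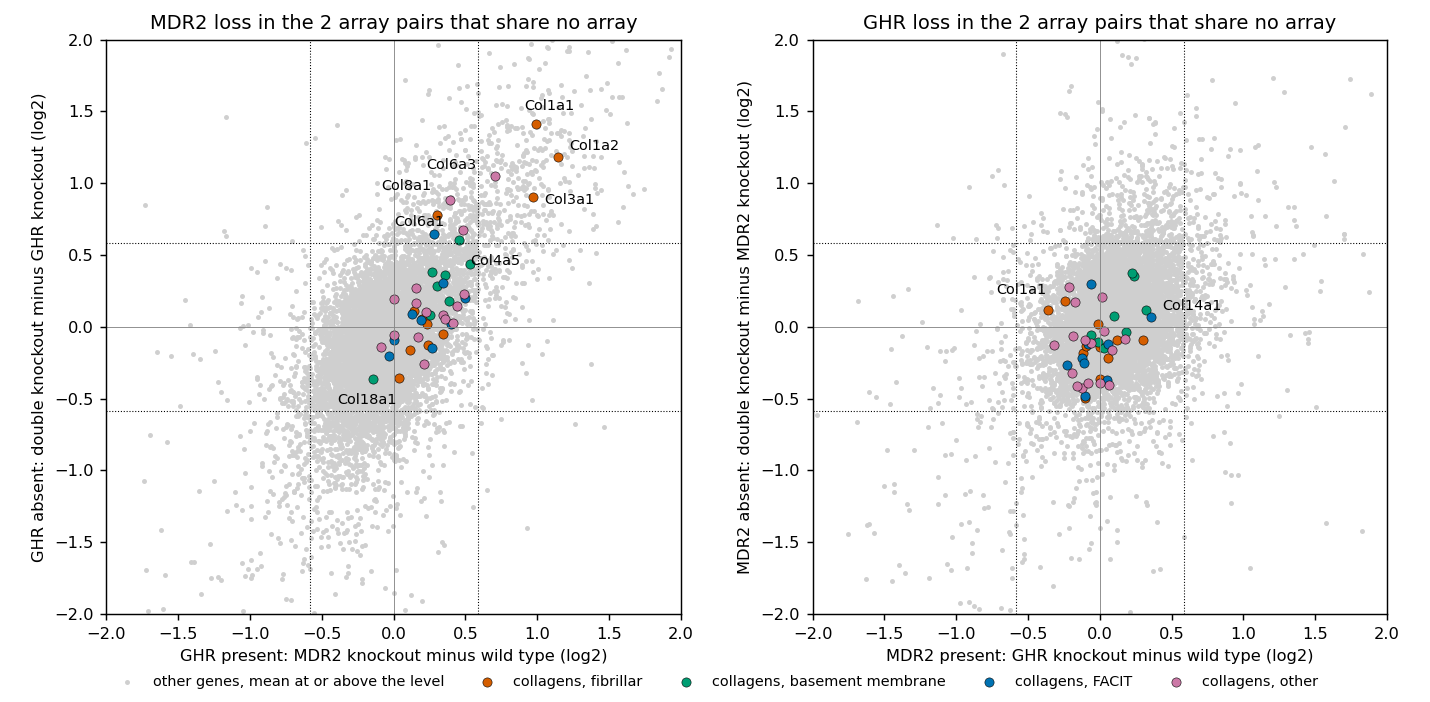
Log2 differences for MDR2 loss (left) and GHR loss (right) in the 2 array pairs that share no array, for collagen genes (coloured by class) and other genes with a mean intensity of at least 100 (grey, axes limited to 2 log2 units), with 1.5-fold lines dotted. Col1a1, Col1a2, Col3a1 and Col6a3 lie past 1.5-fold on both axes of the left plot, and every collagen in the right plot lies inside the lines.

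The MDR2-knockout pool was the highest of the 4 in 25 of the 44 members (56.8%), the double-knockout pool in 12 (27.3%), the GHR-knockout pool in 4 and the wild-type pool in 1, with 2 ties (Col8a2 and Col9a3). Over all genes these pools were highest in 21.5%, 23.9%, 29.5% and 16.3%, with 8.79% tied. The 12 members with the double-knockout pool highest included the type I chains, Col6a1, Col6a3, Col8a1, Col14a1, Col15a1, Col4a3, Col4a4, Col4a5, Col5a2 and Col12a1.

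Collagen chains need enzymes and chaperones to fold. Of 19 measured genes of chain modification and folding, 2 were at least 1.5-fold higher in the MDR2-knockout than in the wild-type pool, 0 in the GHR-knockout against the wild-type pool, 2 in the double-knockout against the MDR2-knockout pool and 3 in the double-knockout against the GHR-knockout pool, and none was lower. Over all genes 3.14%, 2.15%, 3.79% and 5.27% were higher in these comparisons and 1.84%, 1.25%, 2.05% and 5.24% lower, which are the shares to set beside this and the following lists. The list's median log2 differences were 0.19, 0.14, 0.098 and 0.16, against 0.00, 0.048, 0.00 and -0.024 for all genes. Serpinh1, the collagen chaperone HSP47, was 97 in wild type, 151 without MDR2, 109 without GHR and 134 without both. Crtap, of the prolyl 3-hydroxylase complex, was 137, 234, 199 and 283. The prolyl hydroxylases P3h2 (82, 105, 107 and 266) and P4ha1 (211, 248, 240 and 397) were highest in the double-knockout pool, 2.53-fold and 1.60-fold above the MDR2-knockout pool, as was the galactosyltransferase Colgalt1 (617, 706, 567 and 896), at 1.27-fold. By limma, 0 of the 13 tested passed for MDR2 loss, where 3.82% of all genes rose, and 0 for GHR loss, where 0.252% rose.

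Secreted chains are trimmed and cross-linked outside the cell. In this list of 12 measured genes, 2 were higher in the MDR2-knockout than in the wild-type pool, none differed in the GHR-knockout against the wild-type or the double-knockout against the MDR2-knockout pool, and 2 were higher and 1 lower in the double-knockout against the GHR-knockout pool. Pcolce, which speeds removal of the procollagen C-propeptide, was 145, 243, 196 and 320 in the wild-type, MDR2-knockout, GHR-knockout and double-knockout pools and rose with MDR2 loss in the limma fit (log2 0.73, SE 0.14, adjusted p = 0.0415), the 1 gene of 5 tested to do so. Tgm2, a cross-linking transglutaminase, was 860, 1616, 1122 and 1386 and missed the threshold (adjusted p = 0.120). Loxl1, a lysyl oxidase, was 77, 114, 71 and 113, and Pcolce2 was 126, 100, 155 and 90, lower without MDR2. The list's median log2 differences in the 4 comparisons were 0.28, 0.11, -0.13 and 0.0070.

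Cells bind collagen through integrins and discoidin receptors. Of 10 measured receptor and uptake genes, 2 were at least 1.5-fold higher in the MDR2-knockout against the wild-type pool, 0 in the GHR-knockout against the wild-type pool, 2 in the double-knockout against the MDR2-knockout pool and 4 in the double-knockout against the GHR-knockout pool, with none lower. Itga2, the integrin chain that binds type I collagen, was 63, 140, 63 and 261 in the wild-type, MDR2-knockout, GHR-knockout and double-knockout pools, and the discoidin receptor Ddr1 was 110, 180, 93 and 271. Lair1, an inhibitory collagen receptor of leukocytes, was 64, 95, 66 and 116. Itga2 and Ddr1 rose with MDR2 loss by limma (adjusted p = 0.0213 and 0.0436). Itga2 was below 100 in both pools with MDR2. It entered the fit only through its pools without MDR2, the pools where it was higher. In the double-knockout pool Itga2 and Ddr1 were 1.86-fold and 1.51-fold above the MDR2-knockout pool, where the ratios of Col1a1 and Col1a2 were 1.13 and 1.01. The list's median log2 differences in the 4 comparisons were 0.39, 0.096, 0.21 and 0.42.

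Proteases of collagen breakdown made up the last list. Of 9 measured genes, 2 were higher in the MDR2-knockout against the wild-type pool, 0 in the GHR-knockout against the wild-type pool, 3 in the double-knockout against the MDR2-knockout pool and 3 in the double-knockout against the GHR-knockout pool, where 1 was lower. The gelatinase Mmp2 was 142, 287, 157 and 544 in the wild-type, MDR2-knockout, GHR-knockout and double-knockout pools, and the membrane collagenase Mmp14 was 372, 586, 524 and 948. Both rose with MDR2 loss by limma (adjusted p = 0.0237 and 0.0416), and in the double-knockout pool they were 1.90-fold and 1.62-fold above the MDR2-knockout pool. Ctsk, a collagen-cleaving cathepsin, was 54, 61, 60 and 107, and the lower gene was Pepd, which splits proline dipeptides, at 499, 454, 556 and 340. The list's median log2 differences in the 4 comparisons were 0.21, 0.14, 0.13 and 0.26.

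**Figure D4:**
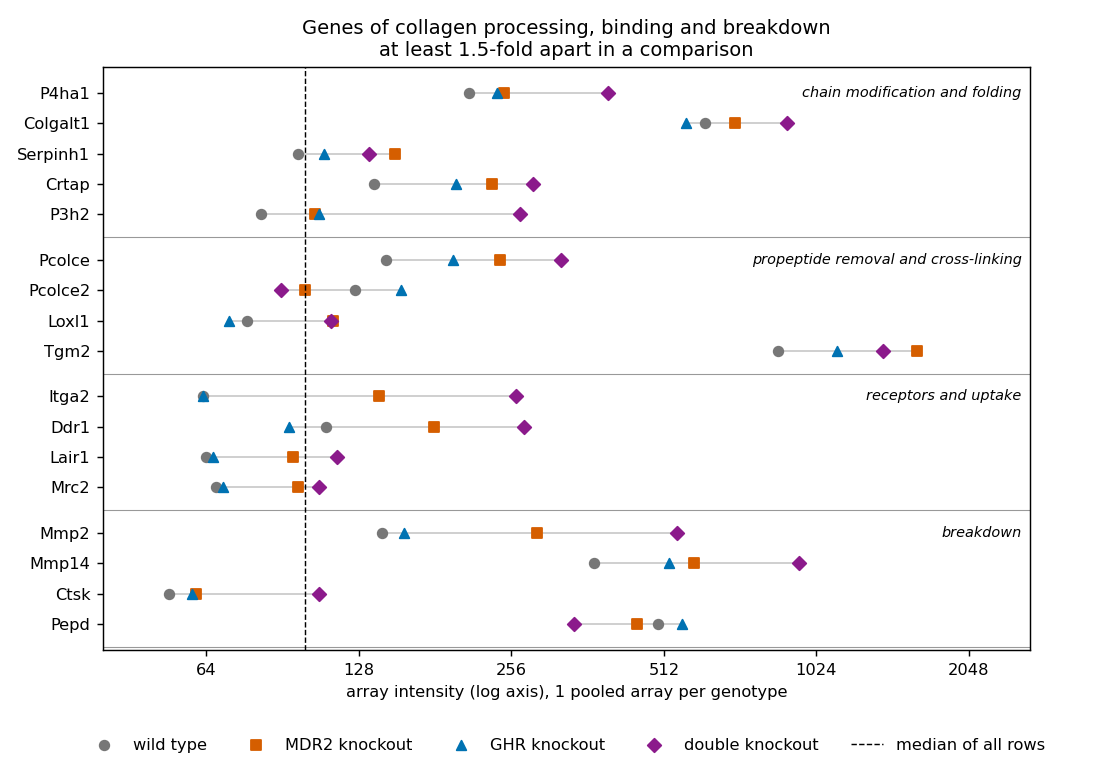
Array intensity on a log axis of the genes of collagen folding, cross-linking, binding and breakdown that were at least 1.5-fold apart in a comparison, 1 point per genotype pool, with the intensity of 100 dashed. P3h2, Itga2, Ddr1, Mmp2 and Mmp14 are highest in the double-knockout pool and 1.51-fold to 2.53-fold above the MDR2-knockout pool.

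Cell markers differed between the same pools. Over 12 stellate cell and myofibroblast markers, all at the level on an array, the summed intensity was 3108 in wild type, 4162 without MDR2, 3990 without GHR and 5119 without both. At least 1.5-fold higher were 3 of 12 in the MDR2-knockout against the wild-type pool (Acta2, Pdgfrb and Cygb). In the GHR-knockout against the wild-type pool 1 was higher (Lrat). There were 3 in the double-knockout against the MDR2-knockout pool (Reln, Pdgfra and Hgf) and 4 in the double-knockout against the GHR-knockout pool (Pdgfrb, Pdgfra, Cygb and Hgf). Lrat and Ngfr were lower in both of the last comparisons. Acta2, the actin of myofibroblasts, was 150, 324, 216 and 223, so the double-knockout pool was not above the MDR2-knockout pool, while Pdgfrb was 149, 289, 217 and 379 and Cygb was 346, 709, 396 and 747. Of these Cygb followed the pools as Col1a2 did. By limma, 2 of the 12 rose with MDR2 loss, Pdgfrb and Cygb (adjusted p = 0.0271 and 0.0213), where 3.82% of all genes did. Acta2 missed the threshold (adjusted p = 0.241).

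Over 8 portal fibroblast markers the sums were 1044, 1719, 1266 and 2064 in the wild-type, MDR2-knockout, GHR-knockout and double-knockout pools, with 5 of 8 higher in the MDR2-knockout against the wild-type pool (Eln, Cd34, Entpd2, Mfap4 and Gas6) and 1 higher in the double-knockout against the MDR2-knockout pool (Cd34). Over 8 cholangiocyte markers they were 604, 982, 519 and 2238, with 5 of 8 and 7 of 8 higher in these comparisons. Over 8 macrophage markers they were 2635, 5976, 3548 and 8701, with 5 and 2 higher. In the double-knockout against the GHR-knockout pool 4 portal fibroblast, 8 cholangiocyte and 5 macrophage markers were higher and 2 macrophage markers lower. In the GHR-knockout against the wild-type pool 1, 0 and 1 were higher, and 1 cholangiocyte marker (Sox9) was lower. By limma, 4 of 6 portal fibroblast, 3 of 5 cholangiocyte and 4 of 6 macrophage markers tested rose with MDR2 loss, where 3.82% of all genes did. Of those that rose, Cd34, Mfap4, Krt19, Cldn4 and Muc1 entered the fit only through their pools without MDR2. The portal fibroblast marker Entpd2 was 123, 219, 113 and 178, in the order of pools seen for Col3a1. Of the macrophage sums Lyz2 alone made up 847, 2879, 977 and 5243. Of these 8 markers, Clec4f (677, 885, 993 and 628) and Cd163 (118, 89, 160 and 81) were lowest in the double-knockout pool. Adgre1 (302, 593, 426 and 645), Cd68, Csf1r, Marco, Lyz2 and Ccr2 were highest in that pool, with Marco below 100 throughout. Endothelial sums were 4984, 5347, 6170 and 4876 over 10 markers, of which Clec4g alone made up 2319, 2735, 2891 and 2560. In the double-knockout against the GHR-knockout pool 4 of these 10 were lower (Lyve1, Kdr, Tek and Emcn), and the list's median log2 difference was -0.44. None of the 10 was counted in the other comparisons. Hepatocyte sums were 135778, 128364, 126177 and 124747 over 12 markers. Cartilage, pancreas, mesothelium and skeletal muscle lists summed to at most 438 on any array, and no marker was at 0 on this scale. Of that 438, in the GHR-knockout pool, the cartilage marker Sox5 alone made up 300, and it was lower in the double-knockout pool (193). The muscle markers Acta1 (173 and 80) and Ckm (106 and 63) were lower in the GHR-knockout than in the wild-type pool. No other marker of these lists was counted in any comparison. The part of cell numbers in the collagen differences was not tested.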

How the data were processed

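Per the labels, total liver RNA was amplified, biotin-labelled and hybridised to whole-transcript Affymetrix arrays, 1 per genotype, each a pool of 3 livers. The deposited intensity values came from RMA in Affymetrix Expression Console 1.1, per the submitters' processing notes. They were whole numbers from 6 to 22355, a linear scale, so log2 was taken and the authors' normalization kept; rounding makes differences at low intensity coarse. No genome build of the probes is given in the sources used here, so only promoter sequences carry coordinates.

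Platform annotation gave 21789 of 35556 rows exactly 1 symbol. Genes with several rows took the row with the highest mean. Pairwise differences compared single arrays; a gene counted at 1.5-fold where the higher array reached 100. limma 3.58.1 in R 4.3.3 fitted GHR and MDR2 status as additive factors on log2 values, with 1 residual and 5.00 prior degrees of freedom, at an adjusted p of 0.05, and was tested on simulated data. The number of arrays limits the precision.

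Members, classes and lists were chosen with earlier results of these data known. Every member that reached 100 on an array is given with its values or range. Of the other lists, up to 3 genes with the largest differences per comparison were named where they passed 1.5-fold. The marker genes given with values were chosen after their values were seen. Fkbp10, Adamts2, Loxl2, Gp6, Spp1 and Pnlip lacked a row of their own and were not analysed here.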

Additional observations from a re-analysis of the deposited data

Results flagged for a closer look

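The row of Col6a5 that was not used, because its mean was lower than that of the other row, had an intensity of 46 with MDR2 and GHR intact, 102 in the MDR2-knockout, 50 in the GHR-knockout and 58 in the double-knockout pool, a log2 difference of 1.15 between the MDR2-knockout and the wild-type pool. In the row that was used this difference was 0.44. The double-knockout pool was 1.76-fold below the MDR2-knockout pool in the unused row and 1.34-fold below it in the row used. Both rows were highest in the MDR2-knockout pool. In the GHR-knockout against the wild-type pool they went opposite ways, by -0.13 in the row used and 0.12 in the unused row. With 1 array per genotype no array could be set against others of its group.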

How the results depend on the processing

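Counts of members, medians and the additive fits were recomputed under the settings fixed beforehand, and 95 values kept their direction within the limits set (counts within 1.5 times, medians within 0.1). The numbers of members at least 1.5-fold higher in the MDR2-knockout against the wild-type pool were 1 at 2-fold and 10 with hepatocyte centring, in place of 4. In the double-knockout against the GHR-knockout pool they were 2 with the level at the 75th percentile (intensity 329; Col1a1 and Col1a2) and 3 at 2-fold, in place of 7. In the double-knockout against the MDR2-knockout pool 1 member was lower with median centring (Col5a3) and 1 when a gene's rows were averaged (Col6a5), in place of 0. The median log2 difference moved with hepatocyte centring to 0.45 from 0.28 (MDR2-knockout against wild type), to 0.24 from 0.11 (double-knockout against GHR-knockout) and to 0.072 from -0.039 (GHR-knockout against wild type, a turn of sign), and with median centring to -0.16 in the last. All genes together shifted by 0.17, 0.14 and 0.11 with hepatocyte centring in these comparisons, and by -0.12 with median centring in the last, so the collagens relative to all genes kept their distance by construction. The additive fit called 0 members for MDR2 loss with no level, in place of 4; it then tested 19938 genes with 1.41 prior degrees of freedom. No paired analysis was possible because each genotype had 1 array, and no array could be left out of the additive fit with a residual degree of freedom remaining.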
